A study of Mus musculus with 8 samples.

Results

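Heat shock proteins are chaperones that hold, unfold or refold other proteins, and DnaJ proteins (J-domain cochaperones) deliver clients to the HSP70 chaperones and stimulate their ATPase. Some members, such as Hspa8 and Hsp90ab1, are made in most unstressed cells, including neurons, while others, such as Hspa1a, Hspb1 and Dnajb1, are raised by heat shock factor when proteins unfold in the cytosol. A separate group works in the endoplasmic reticulum (ER), where unfolded protein raises Hspa5 and its partners through the unfolded protein response. The members described here were chosen by gene symbol on the array: those of the forms Hspa, Hspb, Hspd, Hspe, Hsph and Hsp90, and Dnaja, Dnajb and Dnajc with a number. The small heat shock proteins are not covered in full. This rule found 137 probes of 71 genes among 41174 non-control probes. Of these, 126 probes of 67 genes were bright enough to be tested, among 27981 probes tested in all.

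The hippocampus of 4 adult male BTBR T+ Itpr3tf/J mice (BTBR) and of 4 male C57BL/6J mice (B6) was profiled, each mouse on a separate 1-colour array of 60-base probes. BTBR is an inbred strain with autism-like behaviour that is homozygous for the tufted allele of Itpr3, and B6 is the inbred comparison strain. All mice were 5 months old, and their labels name no transgene and say that no drug was given. The strains differ across the whole genome, so a difference cannot be assigned to the Itpr3 allele or any other locus, and in whole tissue fewer cells of a type and less RNA per cell cannot be told apart. One label of the BTBR samples gives their background as C57BL/6J, while their titles, source and genotype name BTBR. Levels below are log2 intensities after quantile normalisation, differences are BTBR minus B6 on that scale with the limma standard error (SE), and a probe was called at a Benjamini-Hochberg adjusted p under 0.05 over all tested probes. Levels are not comparable between probes.

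The arrays lay on 2 slides, each with 2 mice of either strain (replicates 1 and 2 on slide 1, replicates 3 and 4 on slide 2), so the slide was a batch that could be separated from strain. Between 56.8% and 71.9% of probes were well above background per array, and no spot was saturated. On all 8 arrays 14 of the 20 probes of the hippocampal neuron list were well above background. None of its 17 tested probes was called by limma (7.61% of all probes), 6 were called by the rank product (3.91%) and 4 had an unadjusted p under 0.05 (18.5%), and their median difference was -0.63. They summed to 57700 and 80800 on the arrays of BTBR replicates 1 and 2 and to between 93600 and 148000 on the others. Blood markers summed to 199000 on the array of BTBR replicate 3 and to at most 78100 on any other. Thalamus markers summed to 175000 on the array of BTBR replicate 1 and to at most 36400 on any other array. Choroid plexus markers summed to 235000 and 218000 on the arrays of BTBR replicates 1 and 2, to 73500 and 64300 on those of BTBR replicates 3 and 4, and to between 54000 and 143000 in B6. On the same BTBR arrays 1 and 2, oligodendrocyte markers summed to 619000 and 735000 (at most 524000 on the others), immediate early genes to 332000 and 283000 (at most 255000) and endothelial markers to 70600 and 81000 (at most 70000). The part of these markers in the results below was not tested.

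Member probes were called at nearly the rate of the whole array. limma called 9 of 126 member probes (7.14%), beside 7.61% of all tested probes, with 3 higher in BTBR (3.31% of all probes were called higher) and 6 lower (4.3% of all probes). The median difference was 0.016 over the members and 0.011 over all probes. A difference of less than 0.2 was found at 97 of 126 member probes, beside 20655 of 27981 over all probes. The arrays of the strains did not overlap at 17 member probes (13.5%), beside 14.2% of all probes. An unadjusted p under 0.05 was reached by 25 member probes, and 18.5% of all probes reached it. The rank product, the test named in the methods, called 2 member probes, 1 of Hsp90b1 and 1 of Hspb1, and 3.91% of all probes. With slide as a block limma called 14 member probes, 5 higher and 9 lower, beside 8.33% of all probes. With arrays centred on their median in place of quantile normalisation, the member calls were 0 higher and 6 lower, beside 2.54% and 4.33% of all probes.

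**Figure D1:**
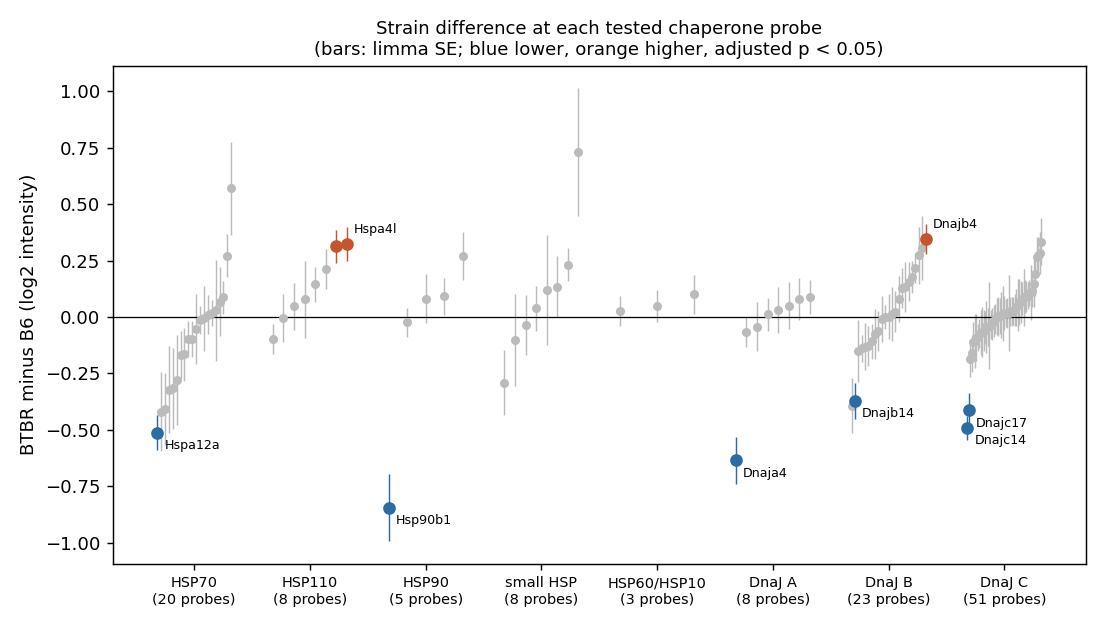
BTBR minus B6 (log2 intensity, vertical axis) for each of the 126 tested member probes, grouped by family and sorted within it; points are differences, bars are limma SEs, and coloured points passed an adjusted p of 0.05. Most points lie close to 0, the lowest is an Hsp90b1 probe at -0.85, and the grey point of the small heat shock proteins at 0.73 is Hspb1.

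The counts by family stand beside shares over all probes of 7.61% called, 3.31% higher and 4.3% lower, and most families hold few probes. HSP70 had 1 of 20 tested probes called, lower. HSP110, the nucleotide exchange factors Hspa4, Hspa4l and Hsph1, had 2 of 8 called, both higher and both of Hspa4l. HSP90 had 1 of 5 called, lower. None of the 8 small heat shock protein probes and none of the 3 probes of the mitochondrial chaperonin, HSP60 and HSP10, was called by limma, and 2 and 0 of them had an unadjusted p under 0.05 (18.5% of all probes). DnaJ A had 1 of 8 called, lower. DnaJ B had 2 of 23 called, 1 in each direction. DnaJ C, the largest subfamily, had 2 of 51 called, both lower, and 45 of its probes differed by less than 0.2. Every probe of Dnajb7, Dnajb8, Dnajc5b and Dnajc22 was too dim to test, and 1 probe each of Dnajb4, Dnajc5g, Hspa4, Hspa12a, Hspa13 and Hspb11 was too.

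The 9 called probes belonged to 8 genes. Each of these genes had at least 2 tested probes, and none had all of them called. At every called probe the 4 BTBR arrays lay wholly on one side of the 4 B6 arrays, which gives the smallest p an exact two-sided permutation test of 4 against 4 allows, 0.0286. The probes were picked on these same arrays, so this is not a second test. The strains did not overlap at 14.2% of all probes.

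**Figure D2:**
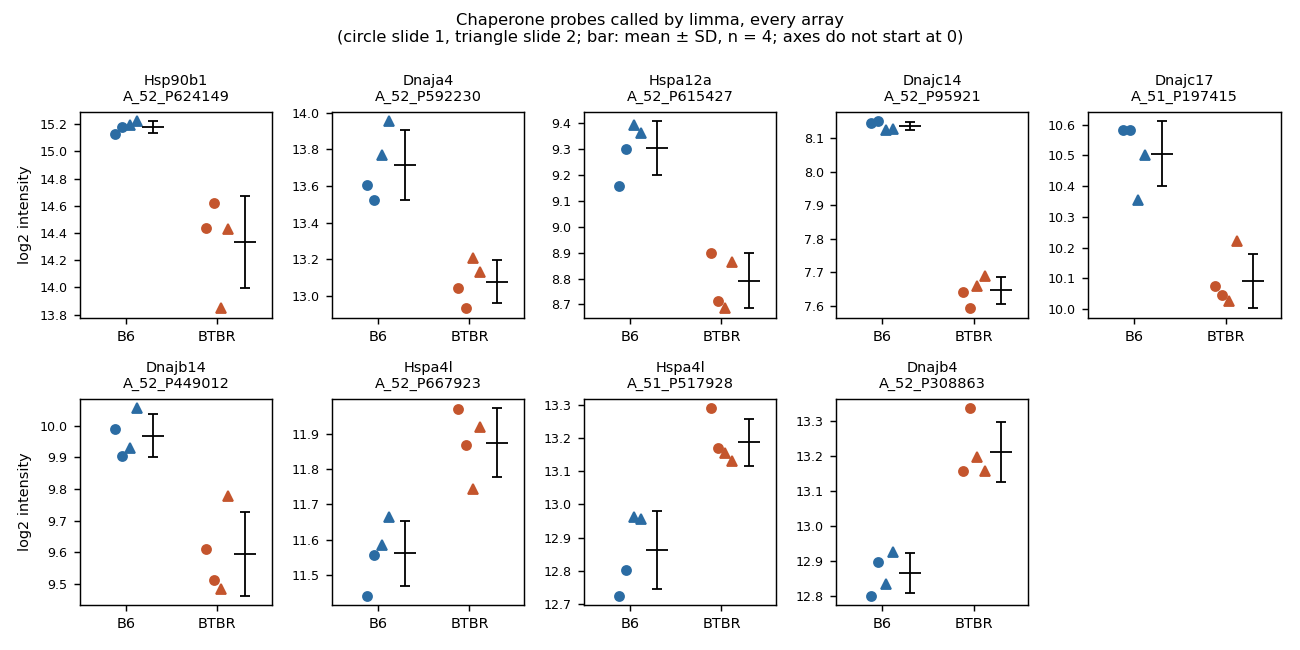
Log2 intensity (vertical axes, which do not start at 0) of the 9 called member probes on every B6 and BTBR array; circles are slide 1, triangles slide 2, and the bar beside each group is its mean ± SD (n = 4). The groups do not overlap in any panel, and the BTBR arrays of the Hsp90b1 probe spread from 13.85 to 14.62.

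Hsp90b1 (GRP94, the HSP90 of the ER) had the largest difference among the members and the sharpest disagreement between probes. Its probes lie on transcript NM_011631, one starting at base 884 (mm9, chr10:86161329-86161388) and the other at base 2515 (chr10:86153770-86153829). Their first 30 bases are shown because the results turn on which of them is read:
Hsp90b1 A_52_P590546, base 884: aatcttgtcaggaagtactctcagttcatc
Hsp90b1 A_52_P624149, base 2515: aatcccgtgtggagagggaatgtgaagttt

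At the probe from base 2515, B6 arrays read 15.12, 15.18, 15.20 and 15.22 and BTBR arrays 14.44, 14.62, 13.85 and 14.43. All BTBR values were lower, with BTBR replicate 3, the array with the high blood marker sum, lowest. The part of blood in this value was not tested. The difference was -0.85 ± 0.15 (limma adjusted p = 0.00786, 1.80-fold higher in B6). It was -0.62 within slide 1 (adjusted p = 0.0812, not called) and -1.07 within slide 2. At the probe from base 884, B6 arrays read 14.95, 14.93, 15.18 and 15.22 and BTBR arrays 15.28, 15.52, 15.13 and 15.43. Here BTBR lay higher, with BTBR replicate 3 inside the B6 range, and the difference of 0.27 ± 0.11 was not called (limma adjusted p = 0.211). The probes of this 1 transcript gave opposite signs, and no direction is given for the gene.

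Dnaja4, a type A J-protein that partners HSP70 in the cytosol, was called at 1 of its 2 probes along NM_021422. The probe that was called starts at base 2567 (mm9, chr9:54563687-54563746), and the other at base 334:
Dnaja4 A_51_P308549, base 334: ttcagatcctaagaaaagagacatctatga
Dnaja4 A_52_P592230, base 2567: agctgctgggataacctgtcagatccatcc

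At the probe from base 2567, B6 arrays read 13.61, 13.52, 13.77 and 13.96 and BTBR arrays 13.04, 12.93, 13.20 and 13.13. Every BTBR array was below every B6 array, by -0.64 ± 0.11 on average (limma adjusted p = 0.00572, 1.55-fold higher in B6). This call was made in each of 20 alternative limma fits, with differences from -0.70 to -0.56, and was not made by the rank product. The probe from base 334 differed by 0.05 ± 0.10 (adjusted p = 0.857). Dnaja1 (3 probes), Dnaja2 (1 probe) and Dnaja3 (2 probes), the other type A proteins, differed by between -0.07 and 0.09, with no call.

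Dnajc14, a J-protein of the ER membrane, carried the smallest adjusted p among the members, at a dim probe. That probe was kept for testing only through B6, the strain where it read higher, so its p does not rank it above the others. Probe A_52_P95921 (mm9, chr10:128256175-128256234, base 3901 of NM_028873) read 8.14, 8.15, 8.12 and 8.13 in B6 and 7.64, 7.59, 7.66 and 7.69 in BTBR. It was well above background on 3 B6 arrays and on no BTBR array, so the size of the difference is uncertain. The measured means were 8.14 and 7.65 (limma adjusted p = 4.8e-04). With each BTBR array raised to its lowest detected value, where that was higher, the probe was 1.33-fold higher in B6. On BTBR replicates 1 and 3 that value (6.20 and 6.17) lay below the probe's own reading, so 1.33-fold is no firm lower bound. The fitted difference of this probe ranged from -2.93 to -0.26 over the alternative settings. Dnajc14 probe A_51_P185775, from base 1839 and well above background on all arrays, differed by -0.04 ± 0.08 (adjusted p = 0.845).

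Hspa12a, a distant HSP70 relative that is abundant in brain, was called at 1 of 3 tested probes. Probe A_52_P615427 (mm9, chr19:59001330-59001389) was designed on the cDNA AK076683. It read 9.16, 9.30, 9.39 and 9.36 in B6 and 8.90, 8.71, 8.69 and 8.86 in BTBR. The groups were apart by -0.51 ± 0.08 (limma adjusted p = 0.00383, 1.43-fold higher in B6). The call was not made within slide 1 alone (-0.42, adjusted p = 0.059). The probes on the reference transcript NM_175199, A_51_P506899 and A_52_P460422, differed by -0.05 ± 0.16 and -0.01 ± 0.15, and neither was called.

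Dnajc17, a J-protein linked to RNA splicing, was lower at probe A_51_P197415 (mm9, chr2:118998369-118999946, designed on AK006322). B6 arrays read 10.58, 10.58, 10.36 and 10.50 and BTBR arrays 10.08, 10.04, 10.02 and 10.22. The difference was -0.41 ± 0.08 (limma adjusted p = 0.0101, 1.33-fold higher in B6). It was -0.52 within slide 1 and -0.31 within slide 2, where it was not called (adjusted p = 0.227). Of 73 other tested probes within 1 Mb, 26 were called (35.6%), a share that lay between 4.76% and 15.8% around the other called members. The second Dnajc17 probe, A_52_P521419 on NM_139139, had the opposite sign (0.10 ± 0.06, limma adjusted p = 0.454) and was not called. Its lowest BTBR array (9.653) lay just above its highest B6 array (9.650), and the strains did not overlap at 14.2% of all probes.

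Dnajb14, a J-protein of the ER membrane, was lower at probe A_52_P449012 (mm9, chr3:137576072-137576131). B6 arrays read 9.99, 9.90, 9.93 and 10.05 and BTBR arrays 9.61, 9.51, 9.48 and 9.78. The difference was -0.37 ± 0.08 (limma adjusted p = 0.0211, 1.29-fold higher in B6). The call was lost when any of B6 replicates 1, 3 and 4 or BTBR replicate 2 was left out (adjusted p from 0.0552 to 0.0696), and within either slide. Its other probes, A_51_P233267 and A_51_P436254, differed by -0.11 ± 0.08 and -0.13 ± 0.09.

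Dnajb4, a heat-inducible type B J-protein, was higher in BTBR at probe A_52_P308863 (mm9, chr3:151847247-151847306, base 2074 of NM_025926). B6 arrays read 12.80, 12.90, 12.83 and 12.93 and BTBR arrays 13.16, 13.34, 13.20 and 13.16. All BTBR arrays were higher, by 0.35 ± 0.07 on average (limma adjusted p = 0.012, 1.27-fold). With median centring it was 0.29 and not called (adjusted p = 0.0696), and within slide 2 it was 0.30 (adjusted p = 0.227). The probe A_52_P621617 of Dnajb4 differed by 0.27 ± 0.13 and A_52_P475653, on the cDNA AK077587, by -0.08 ± 0.11, and neither was called.

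Hspa4l, an HSP110 that exchanges the nucleotide of HSP70, was the only member gene with 2 called probes. They lie next to each other on NM_011020, A_52_P667923 at base 2636 (mm9, chr3:40593366-40593425) and A_51_P517928 at base 2705 (chr3:40593435-40593494), so they are readings of 1 stretch of RNA. At A_51_P517928 the B6 arrays read 12.73, 12.80, 12.96 and 12.96 and the BTBR arrays 13.29, 13.17, 13.15 and 13.13. At A_52_P667923 the B6 arrays read 11.44, 11.56, 11.58 and 11.66 and the BTBR arrays 11.97, 11.87, 11.74 and 11.92. BTBR was higher on every array at both probes. The differences were 0.33 ± 0.08 (limma adjusted p = 0.0323) and 0.31 ± 0.07 (limma adjusted p = 0.0357), or 1.25-fold and 1.24-fold. Probes further along the transcript, A_52_P652704 (base 3450) and A_52_P75568 (ENSMUST00000077083), differed by 0.08 ± 0.17 and 0.14 ± 0.08. The Hspa4l calls were the least firm. Each was made in 10 of 20 alternative limma fits and not by the rank product, and neither was made with median centring (adjusted p = 0.149 and 0.223) or within slide 2. The call at A_51_P517928 was lost without B6 replicate 1 or 2 or any BTBR replicate (adjusted p from 0.0505 to 0.103). That at A_52_P667923 was lost without B6 replicate 1, 2 or 3 or BTBR replicate 1, 2 or 4 (adjusted p from 0.0766 to 0.0995).

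**Figure D3:**
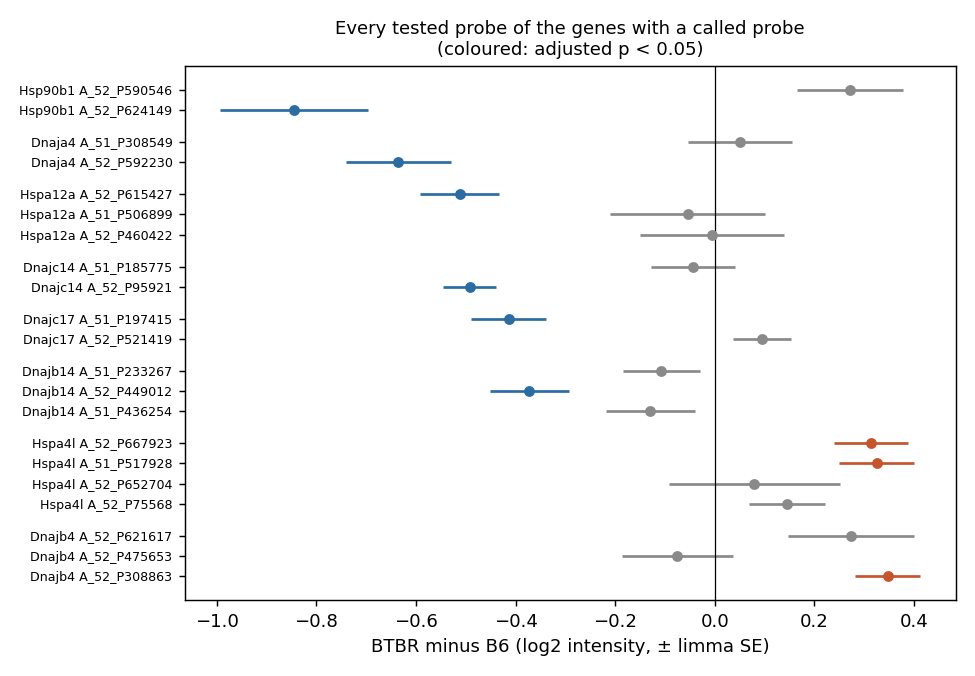
BTBR minus B6 (log2 intensity, horizontal axis, ± limma SE) for every tested probe of the 8 genes with a called probe, ordered along the transcript within each gene; coloured points passed an adjusted p of 0.05. In Hsp90b1, Dnaja4, Dnajc17 and Dnajb4 probes of 1 gene lie on opposite sides of 0. The uncalled Dnaja4 probe (0.05 ± 0.10) and the lowest Dnajb4 probe (-0.08 ± 0.11) lie within an SE of 0.

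Of the heat-inducible cytosolic HSP70 pair, 3 of 4 probes were called lower in BTBR with slide as a block (4.75% of all probes). Without it 0 were (4.3% of all probes called lower), and the 4 probes are not separate readings. Hspa1a and Hspa1b encode nearly identical proteins from neighbouring genes and are the main heat-inducible HSP70s. Their promoters, taken from RefSeq (GRCm38.p6, 250 bases before to 50 after the start site), matched at 296 of 300 positions (98.7%). The stretch around the heat shock element, the binding motif of heat shock factor, is shown because it is shared; capitals mark the motif GAANNTTC, which is its own reverse complement and so reads alike on both strands:
Hspa1a chr17:34972223-34972290, minus strand: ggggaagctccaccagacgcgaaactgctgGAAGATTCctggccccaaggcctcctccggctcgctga
Hspa1b chr17:34959305-34959372, minus strand: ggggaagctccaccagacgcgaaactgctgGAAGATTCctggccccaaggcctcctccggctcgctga

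The motif was found in 7.86% of 32851 RefSeq promoters and in 16 of 74 member promoters, which belong to 14 of 57 member genes that have one. These include Dnaja1, Dnaja4, Hspb1, Hspd1, Hspe1 and Hsph1. A match is a description of letters in this window and says nothing of binding.

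The Hspa1a probes share 30 bases and count as 1 reading. At A_51_P117952 the slide 1 arrays read 12.86 and 12.84 in B6 and 12.45 and 12.37 in BTBR, and the slide 2 arrays 13.21 and 13.30 in B6 and 12.95 and 12.82 in BTBR. Both strains were higher on slide 2, and BTBR was below B6 within each slide, although the strains overlapped over all arrays. The difference was -0.41 ± 0.16 (limma adjusted p = 0.209, not called) without the slide and was called with slide as a block (adjusted p = 0.00486), with -0.44 within slide 1 (adjusted p = 0.0276) and -0.37 within slide 2 (0.0854, not called). Hspa1a probe A_52_P82741 gave -0.42 ± 0.18 (adjusted p = 0.242, and 0.0244 with slide as a block), called within slide 1 (0.0353) and not within slide 2 (0.342).

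At Hspa1b probe A_52_P52803 the slide 1 arrays read 10.31 and 10.39 in B6 and 10.09 and 10.11 in BTBR, and the slide 2 arrays 10.78 and 11.04 in B6 and 10.53 and 10.53 in BTBR. The pattern was that of Hspa1a, at -0.32 ± 0.18 (limma adjusted p = 0.414, and 0.0383 with slide as a block). The dimmer Hspa1b probe A_52_P304902 differed by -0.17 ± 0.10 and was called in neither fit (adjusted p = 0.459 and 0.17). No Hspa1b probe was called within a slide. Transcripts of these genes are alike enough that their readings may not be separate.

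Hspb1 (HSP25, a small heat shock protein that binds unfolding proteins) behaved in another way. Its probe A_52_P404533 read 11.37 and 11.88 in B6 and 12.998 and 13.12 in BTBR on slide 1, and 12.53 and 11.88 in B6 and 12.26 and 12.21 in BTBR on slide 2. The difference of 0.73 ± 0.28 (1.66-fold) was not called (limma adjusted p = 0.199). It was 1.43 within slide 1 (adjusted p = 0.0134) and 0.03 within slide 2, and the term for a difference between slides had an unadjusted p of 0.00367. BTBR replicates 1 and 2, which carried the high Hspb1 values, are also the arrays with the highest sums of choroid plexus, oligodendrocyte, immediate early and endothelial markers and the lowest of hippocampal neuron markers. The part of these markers in the Hspb1 values was not tested.

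Over all tested probes this slide term was called at 0 by limma, and 2780 probes (9.94%) had an unadjusted p under 0.05. Among the members 13 of 126 did. Hspa2, an HSP70 best known from testis, was lower in BTBR on slide 1 (-0.62 at A_51_P453149 and -0.63 at A_52_P176391) and close to B6 on slide 2 (-0.03 and 0.07). Dnajb2, a neuronal J-protein, differed by 0.59 on slide 1 and 0.02 on slide 2. Both genes were named after their values were seen, and neither difference was called over all arrays (adjusted p = 0.438 and 0.535 for Hspa2, and 0.302 for Dnajb2).

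The remaining reference members of the cytosol did not pass the test. Hsph1 (HSP105) at A_51_P110455 read 15.60, 15.60, 15.54 and 15.90 in B6 and 15.76, 15.88, 15.94 and 15.90 in BTBR. B6 replicate 4 lay among the BTBR arrays, and the difference was 0.21 ± 0.09 (limma adjusted p = 0.241). Dnajb1 (HSP40), the J-protein that works with Hspa1a, differed by 0.13 ± 0.09 and 0.01 ± 0.12 at its 2 probes. Hsp90aa1, the inducible HSP90 of the cytosol, differed by -0.02 ± 0.06, and Hsp90ab1, its constitutive form, by 0.09 ± 0.08 and 0.08 ± 0.11. Hspa8 (HSC70), the constitutive HSP70, differed by 0.03 ± 0.22 at A_51_P170371 and by 0.27 ± 0.10 at A_52_P12877 (adjusted p = 0.964 and 0.155). In a list of 10 heat-inducible genes, drawn up after the values were seen and without Dnajb4, 0 of 17 probes were called by limma (7.61% of all probes), 5 had an unadjusted p under 0.05 (18.5%), 3 were called with slide as a block (8.33%) and 1 by the rank product (3.91%), and the median difference was 0.027. Dnajb4, which is also heat-inducible, had 1 of 3 tested probes called higher, so the count of 0 depends on leaving it out.

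**Figure D4:**
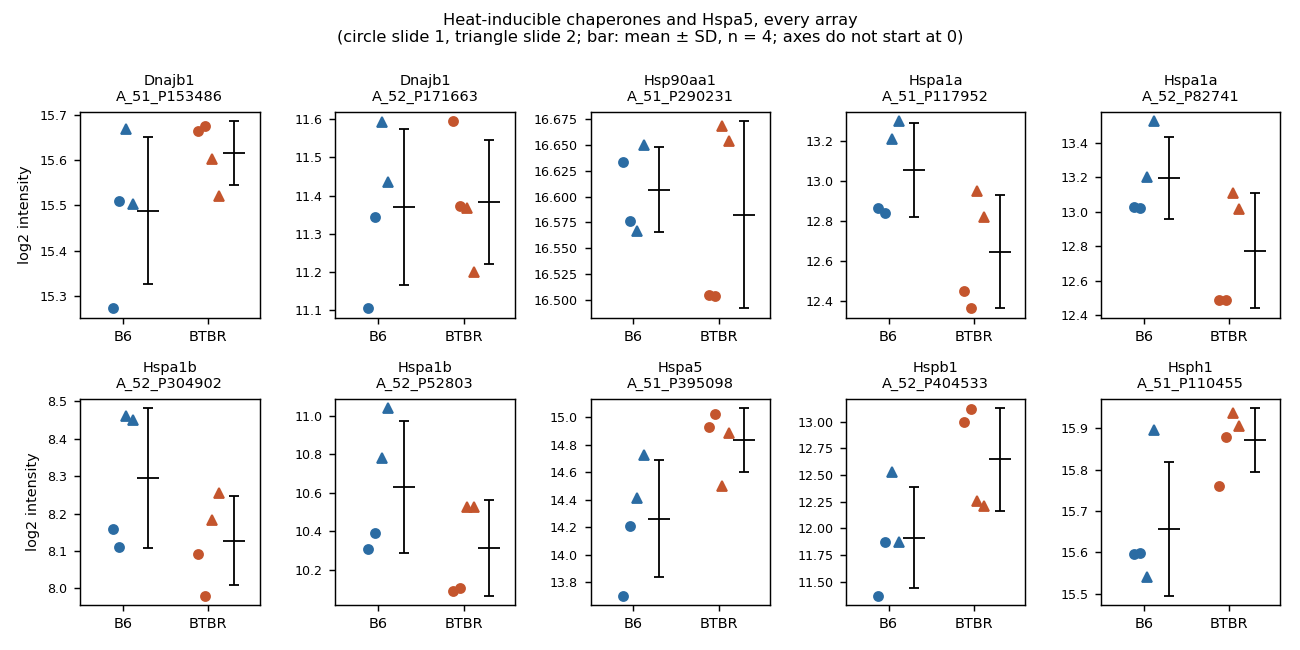
Log2 intensity (vertical axes, which do not start at 0) of the probes of Dnajb1, Hsp90aa1, Hspa1a, Hspa1b, Hspa5, Hspb1 and Hsph1 on every array; circles are slide 1, triangles slide 2, and the bar is the mean ± SD (n = 4). For Hspa1a, BTBR lies below B6 among the circles and again among the triangles, while for Hspb1 only the circles separate the strains, with 12.998 and 13.12 in BTBR against 11.37 and 11.88 in B6.

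Among the mitochondrial members, Hspa9 (mortalin), the HSP70 of the mitochondrial matrix, differed by -0.01 ± 0.06 at A_51_P265869 and 0.09 ± 0.07 at A_52_P520687. Hspd1 (HSP60) differed by 0.05 ± 0.07 and 0.03 ± 0.07, and Hspe1 (HSP10), the lid of that chaperonin, by 0.10 ± 0.08. Over 13 probes of 9 mitochondrial members, a list drawn up after the values were seen, the range was -0.18 to 0.10. None of the 13 was called by limma (7.61% of all probes), with slide as a block (8.33%) or by the rank product (3.91%). None had an unadjusted p under 0.05 (18.5%).

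Of 30 probes of ER members, 0 were called higher in BTBR and 3 lower, beside 3.31% and 4.3% of all probes. Of the 3, that of Dnajc14 was kept for testing only through B6. Hspa5 (BiP), the HSP70 of the ER, read 13.70, 14.21, 14.41 and 14.72 in B6 and 14.93, 15.02, 14.50 and 14.88 in BTBR at A_51_P395098. BTBR replicate 3 lay inside the B6 range. The difference was 0.57 ± 0.21 (1.48-fold, limma adjusted p = 0.167), with 1.02 within slide 1 (adjusted p = 0.0275) and 0.12 within slide 2. The lowest array was B6 replicate 1, and the highest were BTBR replicates 2 and 1, whose marker sums stood apart as given for Hspb1, followed by BTBR replicate 4, whose choroid plexus and oligodendrocyte sums were not high. The part of these markers was not tested.

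Dnajc3 (p58IPK), a J-protein that serves Hspa5 in the ER lumen and was named after its values were seen, gave differences above 0 at each of 4 probes, of 0.33 ± 0.10, 0.29 ± 0.09, 0.19 ± 0.10 and 0.15 ± 0.10. None was called by limma (adjusted p from 0.103 to 0.523), and A_52_P264902, the first of these, was called with slide as a block (adjusted p = 0.0307). Its B6 arrays read 12.42, 12.25, 12.66 and 12.70 and its BTBR arrays 12.78, 12.80, 12.90 and 12.87, without overlap. Dnajb9 (ERdj4) differed by 0.22 ± 0.07, 0.16 ± 0.09 and 0.08 ± 0.10 (adjusted p from 0.0933 to 0.749), and Dnajb11 (ERdj3), named after its value was seen, by 0.18 ± 0.07 (adjusted p = 0.221). In a list of 12 ER members, drawn up after the values were seen, 3 of 30 probes were called (10%, beside 7.61% of all probes), all lower, namely the probes of Hsp90b1, Dnajb14 and Dnajc14 described above. An unadjusted p under 0.05 was reached by 10 of the 30, in either direction (18.5% of all probes), and at 8 of the 30 probes (26.7%) the strains did not overlap (14.2% of all probes).

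The promoters of Hspa5, Hsp90b1 and Dnajc3 were the only member promoters that held the ER stress response element (CCAAT, any 9 bases, then CCACG), the site through which the unfolded protein response acts, searched on both strands. This makes 3 of 74 member promoters, beside 0.119% of 32851 RefSeq promoters. They are shown (GRCm38.p6, element in capitals) because these genes are a known shared target set and the data read them side by side:
Hspa5 chr2:34771995-34772073, plus strand: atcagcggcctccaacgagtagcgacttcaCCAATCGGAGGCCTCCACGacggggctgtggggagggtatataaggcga
Hsp90b1 chr10:86705503-86705686, minus strand: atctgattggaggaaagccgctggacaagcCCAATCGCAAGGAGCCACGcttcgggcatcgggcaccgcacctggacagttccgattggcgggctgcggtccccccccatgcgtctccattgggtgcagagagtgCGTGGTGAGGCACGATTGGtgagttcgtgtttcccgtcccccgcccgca
Dnajc3 chr14:118937797-118937875, plus strand: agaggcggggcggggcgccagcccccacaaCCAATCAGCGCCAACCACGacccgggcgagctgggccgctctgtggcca

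Hsp90b1 holds 2 elements, the second on the opposite strand. Set side by side, Hspa5 was 0.57, the 4 Dnajc3 probes 0.15 to 0.33, and the Hsp90b1 probes 0.27 and -0.85 in BTBR minus B6, and of these differences only the last was called.

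Genes outside the member families that work with these chaperones were read from 5 lists. Of 159 tested probes of 96 genes, 15 were called (9.43%, beside 7.61% of all probes), 10 higher and 5 lower. The ER folding and unfolded protein response list held most of them. It had 9 of 56 probes called (16.1%), 8 higher and 1 lower, beside 7.61% of all probes called, 3.31% higher and 4.3% lower. The rank product called 3 of the 56 (3.91% of all probes) and limma with slide as a block 8 (8.33%). The median difference was 0.10 beside 0.011 over all probes. Above 0 were 45 of 56 differences, beside 14906 of 27981 over all probes. The list was chosen with earlier results of these data known.

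Crebzf, a basic leucine zipper protein, had the smallest adjusted p of this list. It read 12.77, 12.68, 12.77 and 12.66 in B6 and 13.53, 13.47, 13.41 and 13.44 in BTBR, a difference of 0.74 ± 0.06 (limma adjusted p = 7.0e-05). Manf, a secreted ER stress protein, read 12.18, 12.27, 12.40 and 12.51 in B6 and 12.82, 12.92, 12.85 and 12.76 in BTBR, a difference of 0.50 ± 0.08 (limma adjusted p = 0.00568). Derl3, a factor in the export of misfolded ER proteins, differed by 0.56 ± 0.10 (limma adjusted p = 0.00869). The groups did not overlap at any of these probes.

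The other calls of the list, named after their values were seen, were both probes of the ER lectin chaperone Calr (0.52 ± 0.09 and 0.69 ± 0.13), the disulfide isomerase P4hb (0.38 ± 0.07), Derl2 (0.44 ± 0.09, with 0.03 at a second probe that was not called), the Hspa5 partner Sdf2l1 (0.62 ± 0.13) and, lower, 1 of the probes of the stress sensor Atf6 (-0.46 ± 0.12, with 0.13 ± 0.13 at the other). The 8 higher probes were higher within each slide, by 0.49 to 0.93 on slide 1 and 0.27 to 0.71 on slide 2. Each of these differences was larger on slide 1, which holds BTBR replicates 1 and 2, whose marker sums stood apart as given for Hspb1. The part of these markers was not tested. The Atf6 call (adjusted p = 0.0492) was not made with slide as a block (0.0528) and was lost without any 1 array other than BTBR replicate 3. That of Derl2 was lost without B6 replicate 1 or 2 (adjusted p = 0.05 and 0.0536). That of Sdf2l1 was lost without B6 replicate 1, 2 or 3 or BTBR replicate 2 or 4 (0.0545 to 0.0697).

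**Figure D5:**
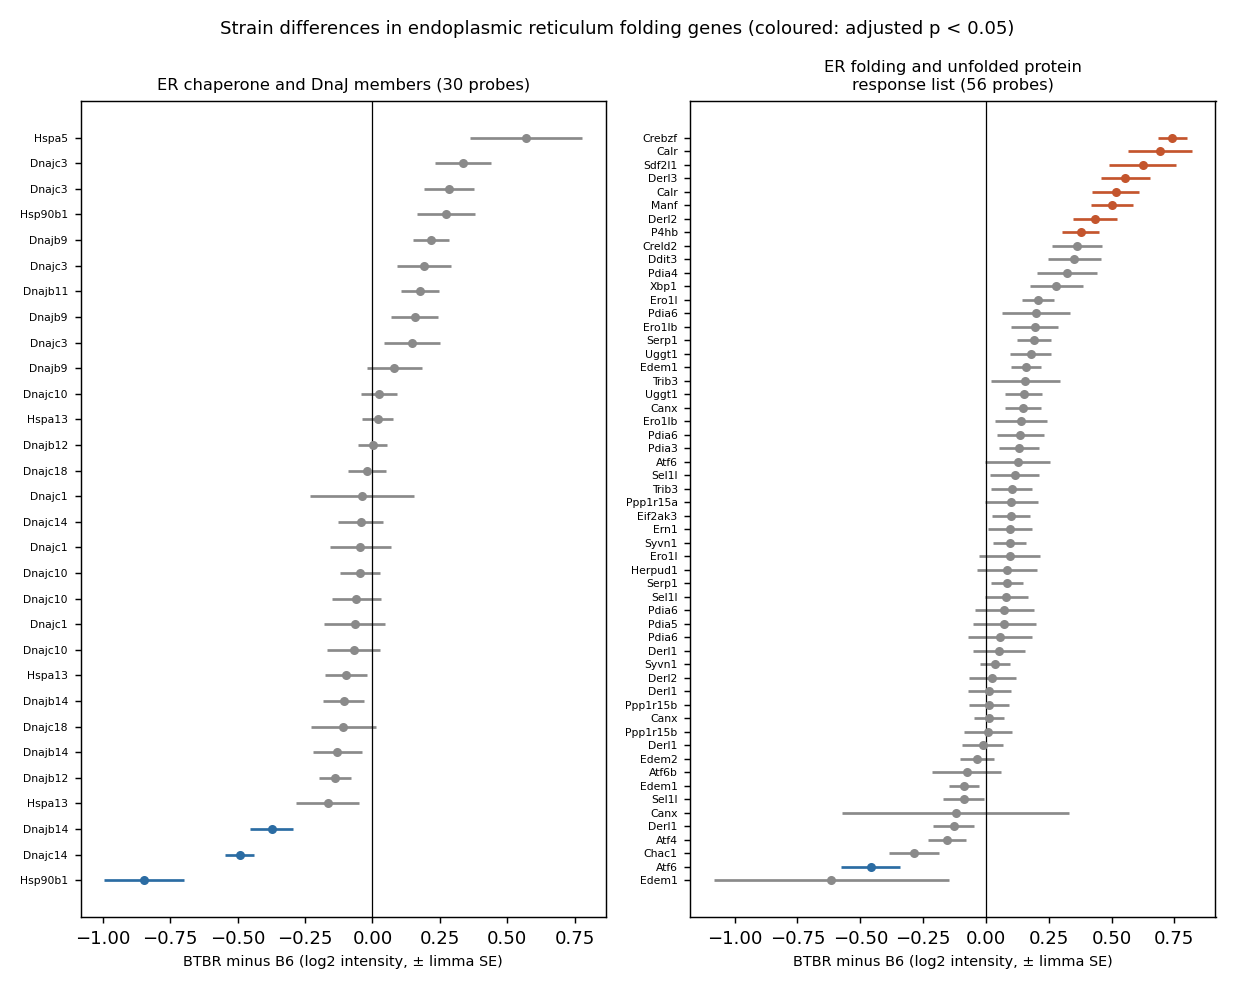
BTBR minus B6 (log2 intensity, horizontal axes, ± limma SE) for 30 probes of the ER members (left) and 56 probes of the ER folding and unfolded protein response list (right), sorted by difference; coloured points passed an adjusted p of 0.05. The calls on the left, Hsp90b1, Dnajc14 and Dnajb14, are all lower, and 8 of the 9 calls on the right are higher, up to 0.74.

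In the list of HSP90 and HSP70 cochaperones, which also holds some mitochondrial and ER proteins, 4 of 62 probes were called (6.45%, beside 7.61% of all probes). Rpap3, a scaffold of the R2TP cochaperone complex, was lower by -0.40 ± 0.07 (limma adjusted p = 0.00771). Bag3, a nucleotide exchange factor of HSP70 that is itself heat-inducible, read 11.22, 11.34, 11.61 and 11.36 in B6 and 11.92, 12.20, 11.98 and 11.70 in BTBR. BTBR was higher on all arrays, by 0.57 ± 0.12 (limma adjusted p = 0.0193), and the call was lost without B6 replicate 1, 2 or 4 (0.0591 to 0.0616). A second Bag3 probe, A_52_P630059, differed by 0.17 ± 0.09 and was not called. Trap1, the mitochondrial HSP90, was higher by 0.27 ± 0.06 (limma adjusted p = 0.0357), and the phosphatase Ppp5c, which binds HSP90, was lower by -0.40 ± 0.10 (adjusted p = 0.0358, named after its value was seen). The Trap1 call was lost without any 1 array other than BTBR replicate 2. The Ppp5c call was lost without any B6 array or BTBR replicate 1 or 4.

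The cytosolic chaperonin and prefoldin list had 1 of 21 probes called (4.76%, beside 7.61% of all probes), Pfdn5, a prefoldin subunit, at -0.58 ± 0.06 (limma adjusted p = 3.6e-04). Its B6 arrays read 14.90, 15.03, 14.98 and 14.92 and its BTBR arrays 14.35, 14.43, 14.39 and 14.31. A second Pfdn5 probe, A_52_P208604, differed by -0.03 ± 0.08 (adjusted p = 0.897). The heat shock factors and their binding proteins had 0 of 11 probes called by limma (7.61% of all probes), with 1 at an unadjusted p under 0.05 (18.5%) and 0 by the rank product (3.91%). Of the 4 J-domain genes that do not carry a DnaJ symbol, Sec63, which recruits Hspa5 to the ER translocation channel, had a called probe. It read 13.05, 12.99, 13.15 and 12.97 in B6 and 11.96, 12.09, 12.29 and 12.06 in BTBR, a difference of -0.94 ± 0.08 (limma adjusted p = 1.4e-04) with -0.99 within slide 1 and -0.88 within slide 2. The other 3 Sec63 probes, A_52_P568781, A_52_P363203 and A_51_P129100, differed by -0.24, -0.05 and 0.09 and were not called.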

How the data were processed

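RNA from the whole hippocampus of 8 mice was hybridised to Agilent 4x44K mouse arrays. The authors deposited spot intensity values for the arrays, with a normalised log2 matrix that served as an alternative. The scanner software was version 10.7.3.1 of Feature Extraction by the array headers and 9.1 by the submitters' processing notes. From each array's mean intensity the median local background was subtracted (minimum 0.5), 50 was added, log2 was taken and arrays were quantile-normalised. The methods name quantile normalisation and the package Agi4x44PreProcess with default parameters; the floor, the offset and the choice of signals were set here to follow that package and are not given in the methods. Spots of a probe were summarised by the median. Control probes and 154 probes with outlier flags were left out, and 27981 of 41174 probes were kept, being well above background on at least 75% of the arrays of a strain. Probe coordinates are on mm9, as the files give them. The symbol rule left out 1 small heat shock protein gene, which is not reported here. All 71 member symbols were found in the RefSeq table and 57 genes had a promoter in it. A genome or protein sequences were not used here.

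BTBR and B6 (4 arrays each, 1 mouse per array) were compared with limma 3.58.1 in R 4.3.3, with Benjamini-Hochberg adjustment over all kept probes; precision is limited by the number of arrays. The rank product (100 permutations), which the methods used, other scalings, filters, thresholds, blocks and left-out arrays were tried as alternatives. Named probes were every called member probe, 14 reference genes whatever their values, the other probes of each called gene and, per partner list, the 3 called probes with the smallest p; others are marked as chosen after their values were seen. The members and lists were chosen with earlier results of these data known. Marker lists were also read. limma called 3 of 22 astrocyte probes (13.6%, all Gfap, lower) and 5 of 15 microglia probes (33.3%, 2 higher and 3 lower), beside 7.61% of all probes. The lists for oligodendrocytes, endothelium, choroid plexus, thalamus, blood and immediate early genes (20, 13, 14, 16, 3 and 17 probes) had 0 called by limma. They had 2, 2, 1, 0, 0 and 1 probes at an unadjusted p under 0.05 (18.5% of all probes). The rank product called 1, 0, 1, 5, 0 and 1 of them (3.91% of all probes). In a test on simulated data (27981 probes, BTBR against B6) the fit recovered 47 of 100 probes changed by 0.5 and 85 of 100 changed by 1 on the log2 scale.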

Additional observations from a re-analysis of the deposited data

Results flagged for a closer look

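Among 86 groups of 4 arrays, those of the 43 named member probes in either strain, 1 held an array far from the other 3. For Hsph1 probe A_51_P110455, B6 replicate 4 read 15.8961, while the other B6 arrays lay between 15.54 and 15.60. Chance sets apart about 1 in 20 such groups. No strain difference of a member differed between the slides after adjustment.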

How the results depend on the processing

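The count of 9 called member probes was 4 at an adjusted p under 0.01, 2 by the rank product, 14 with slide as a block, 15 within slide 1, 4 within slide 2 and 6 to 9 with 1 array left out. Among 115 member probes well above background on all 8 arrays, 8 were called (7.35% of all such probes), 3 higher and 5 lower. The 3 higher calls were 0 at an adjusted p under 0.01, 0 with median centring, 1 with processed signals, 1 by the rank product, 5 with slide as a block, 8 within slide 1, 0 within slide 2 and 1 to 3 with 1 array left out (1 without B6 replicate 1 or 2 or BTBR replicate 1, 2 or 4). The 6 lower calls were 1 by the rank product and 5 to 7 with 1 array left out. The 15 partner calls were 6 at an adjusted p under 0.01, 4 by the rank product, 3 within slide 2 and 9 to 16 with 1 array left out (9 without B6 replicate 2). The share of all probes called moved too, from 7.61% to 4.27% at an adjusted p under 0.01, 3.91% by the rank product, 8.33% with slide as a block, 8.66% within slide 1, 3.7% within slide 2 and 5.48% to 7.8% with 1 array left out. The share called higher moved from 3.31% to 1.63% at an adjusted p under 0.01, 2.54% with median centring and 3.27% with processed signals. It was 3.58% with slide as a block, 3.65% within slide 1 and 1.44% within slide 2. Within a slide 2 arrays stand against 2. The cause of these changes was not tested. With the replicate number as a block, limma called 8 member probes, 1 higher and 7 lower, and 10 partner probes, beside 5.9% of all probes. Deviations of same-numbered arrays correlated at -0.14, 0.51, -0.10 and 0.39, which does not settle whether the numbers pair the mice.

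Of the 43 named member probes, those whose difference changed sign were uncalled on both sides; changes at other member probes are not listed here. Within slide 1 they were -0.066 for Dnaja4 A_51_P308549 and 0.076 for Hspa12a A_51_P506899. Within slide 2 they were -0.024 and -0.23 for Dnajb1, 0.0058 for Dnajb14 A_51_P436254, -0.065 for Dnajb9 A_52_P613358, 0.11 for Dnajc14 A_51_P185775, -0.12 for Hspa4l A_52_P652704, -0.019 for Hspd1 A_52_P1172972, -0.18 for Hspa8 A_51_P170371, 0.032 for Hspa9 A_51_P265869 and 0.052 for Hsp90aa1. With median centring they were -0.033 for Dnajb1 A_52_P171663, -0.020 and -0.024 for Hspd1 and -0.028 for Hspa8 A_51_P170371, and with processed signals -0.0073 for Dnajb1 A_52_P171663. With 1 array left out in turn the ranges that crossed 0 were -0.019 to 0.11 for Dnaja4 A_51_P308549, -0.074 to 0.089 for Dnajb1 A_52_P171663, -0.12 to 0.028 for Dnajb4 A_52_P475653, -0.0087 to 0.24 for Hspa4l A_52_P652704, -0.0027 to 0.059 for Hspd1 A_52_P1172972, -0.16 to 0.050 for Hspa12a A_51_P506899, -0.090 to 0.13 for Hspa12a A_52_P460422, -0.10 to 0.22 for Hspa8 A_51_P170371, -0.039 to 0.015 for Hspa9 A_51_P265869 and -0.053 to 0.0022 for Hsp90aa1.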
